A study of Mus musculus with 6 samples.

Results

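The genes described here are 37 components of the BMP and TGF-beta pathways: ligands, receptors, Smads, antagonists, latency proteins, corepressors and the co-receptor gene Cd109. They were taken as a list of symbols, with 1 probe set per gene that pairs with that gene only, the one with the highest mean over the 6 arrays. All 37 were measured, each by a single such probe set, out of 22180 genes tested. Most were listed as known pathway genes, whereas Cd109 was chosen by its deposited values, which were lower in MG arrays. The contrast of MG with PBS was therefore in view when the list was made, and its values are given below as a description. No single gene of the 37 is given a p-value, and counts of calls among them stand only beside the share of all genes.

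BMPs, TGF-betas and activin-like factors are secreted dimers that bring type I and type II receptor kinases together on the cell surface. The type I receptor phosphorylates receptor-regulated Smads, Smad1, Smad5 and Smad9 on the BMP branch and Smad2 and Smad3 on the TGF-beta and activin branch, which enter the nucleus with Smad4. In the adult subventricular zone, BMP signalling is known to favour astrocyte fate and quiescence, while Noggin, a BMP antagonist, helps to keep a niche in which neurons are made.

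Expression was measured in neurospheres, floating colonies of neural stem and progenitor cells, grown from the subependymal region of 2-month-old CD1 mice, an outbred stock. One group was offspring of females injected with MG, taken to be methylglyoxal because the series title names it, at 0.5 mg/kg, and the other was offspring of females injected with PBS. Both were given intraperitoneally, 2 times a day, between gestational day 12 and birth. The cells of all 6 animals, 3 per group, were plated at 2 cells per microlitre and kept for 7 days in serum-free medium with EGF at 20 ng/ml, FGF2 at 10 ng/ml, B27 and heparin, and 250 ng of RNA per culture went to an Affymetrix Mouse Gene 2.0 ST array. The titles call the cultures primary, while the descriptions call them secondary. The labels do not give sex or litter, so litters and injections cannot be told apart, and the spread within a group is that between 3 cultures.

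The deposited values are log2 intensities, 1 per probe set and array. Values of different probe sets are not set against each other, since each probe set has its own brightness. A level of 5.025, the 95th percentile of the means of 1390 olfactory and vomeronasal receptor genes, served as the reference for a dim probe set. Of 9 markers of neural stem and progenitor cells, among them Nes, Sox2, Fabp7, Egfr and Olig2, all were above it on the 6 arrays. Of 8 microglial and macrophage markers, 3 were above it on every array, as were 2 of 6 endothelial, 3 of 7 pericyte and fibroblast and 0 of 3 choroid plexus markers. The summed linear signal of the microglial list, in log2, ran between 7.94 and 8.07 in MG and between 7.97 and 8.12 in PBS, and that of the pericyte and fibroblast list between 9.15 and 9.32 in MG and between 9.20 and 9.33 in PBS. That of the endothelial list ran between 8.17 and 8.72 in MG and between 7.90 and 8.66 in PBS, and that of the choroid plexus list between 6.37 and 6.62 in MG and between 6.43 and 6.61 in PBS. Ptprc, which marks blood-derived cells, and Lum, a fibroblast proteoglycan gene, were below the reference on all 6 arrays. Above it on all 6 were Cx3cr1, P2ry12 and C1qa of the microglial list, and Col1a1, Col3a1 and Cspg4 of the pericyte and fibroblast list. Cspg4, between 8.34 and 8.63 on the 6 arrays, weighs most in the summed signal of the pericyte and fibroblast list, which says little about its other genes. In whole cultures, fewer cells of a type and less RNA per cell cannot be told apart.

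The arrays numbered 3 of both groups stood apart from the other 4. On the first principal component, with 44.1% of the variance, MG replicate 3 scored 37.6 and PBS replicate 3 scored 21.05, while the other arrays scored between -21.35 and -9.86. The mean of 11 replication and mitosis genes, each relative to its own average over the arrays, was 0.39 in MG replicate 3 and 0.41 in PBS replicate 3, and between -0.38 and -0.09 on the others. The summed endothelial signal was 8.17 in MG replicate 3 and 7.90 in PBS replicate 3, and between 8.50 and 8.72 on the others. In this sum Kdr and Flt1 weigh most, so it says little about the rest of that list. Without both arrays numbered 3, the difference between groups turned sign in 2 of the 37 genes, Tgfb3 and Bmpr2, and changed in size by over 1.5 times in 21, for some of which the value is given below.

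Most of the pathway was detected, and the groups overlapped in most of its genes. Of the 37 genes, 30 were above the reference level on all 6 arrays, as were 12835 of all 22180 genes. Below it on all 6 were 7125 of all genes and 3 of the 37, Bmp2, Bmp5 and Smad6. No fold is given for those 3 or for Tgfbr3, whose means lay below the level in both groups. The mean was higher in MG for 21 genes and lower for 16, with a median log2 difference of 0.01, which is also the median over all 22180 genes. The difference exceeded the pooled standard deviation within groups in 10 of the 37 genes (27.0%), against 23.3% of all genes. In limma, 0 of the 37 genes passed a Benjamini-Hochberg adjusted p of 0.05, against a background of 0% of the genes tested. At an unadjusted p under 0.05 in limma the count was 2 (5.4%), both lower in MG. Of all genes, 3.21% reached that p in either direction, 1.81% with higher and 1.4% with lower values in MG. Nothing is read from these counts, since the list was made with this contrast in view and Cd109 was chosen by these values.

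**Figure D1:**
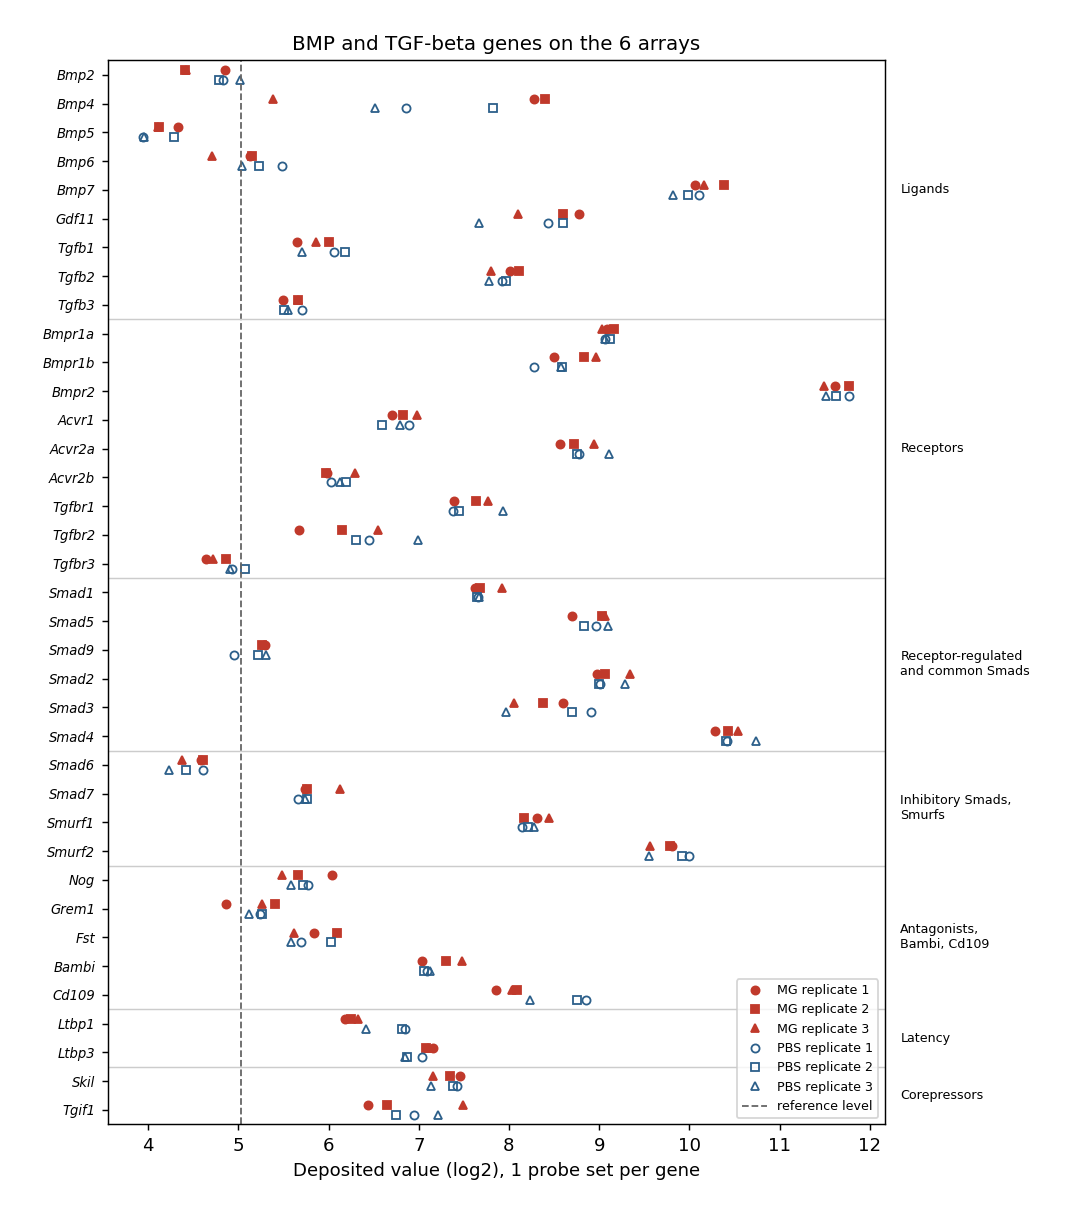
Deposited log2 value (horizontal axis) of the 37 genes on each array, MG filled and PBS open, with 1 marker shape per replicate number and the reference level of 5.025 as a dashed line. Bmp4 spreads between 5.39 and 8.40 over the 6 cultures, while Bmpr1a stays between 9.03 and 9.17.

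Among ligands, Bmp4 differed most between cultures. Bmp4 encodes a ligand of the BMP branch that patterns the dorsal forebrain in the embryo. It stood at 8.27, 8.40 and 5.39 in MG replicates 1, 2 and 3, against 6.86, 7.82 and 6.52 in PBS replicates 1, 2 and 3. Both arrays numbered 3 were the lowest of their groups, and the MG values enclosed all of the PBS values. The extremes lay 8.10-fold apart, and the pooled standard deviation of 1.30 was at percentile 99.99 of all genes. Its log2 difference, 0.29, had a standard error of 0.76 and a 95% interval from -1.46 to 2.03. It was 1.27 without MG replicate 3, 0.995 without both arrays numbered 3, and 0.66 without PBS replicate 2, then 0.19 with PBS replicate 1 left out and 0.01 with PBS replicate 3 left out. Leaving out MG replicate 1 turned it to -0.17, and leaving out MG replicate 2 turned it to -0.24. Gfap, the astrocyte filament gene, stood at 7.16, 6.74 and 5.56 in MG and 5.95, 6.73 and 6.39 in PBS. It too was lowest in MG replicate 3 and highest in MG replicates 1 and 2, in the latter by a narrow margin. In PBS, Gfap was lowest in replicate 1, while Bmp4 was lowest in replicate 3. Slc1a3, like Gfap listed here with the neural stem and progenitor markers, stood at 12.12, 12.19 and 12.14 in MG. In PBS it lay between 11.98 and 12.05. Both genes were picked from the 9 markers of that list. The part of astrocyte content in the Bmp4 values was not tested.

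The other BMP-type ligands varied less. Bmp7, whose product signals through BMP and activin type receptors, stood at 10.07, 10.39 and 10.16 in MG, against 10.10, 9.99 and 9.82 in PBS. Its groups overlapped in 1 value, MG replicate 1, and the log2 difference was 0.24 (standard error 0.14, 95% interval -0.08 to 0.55). Gdf11, an activin-like ligand that signals through Smad2 and Smad3, stood at 8.77, 8.60 and 8.10 in MG and 8.43, 8.60 and 7.67 in PBS. Its replicate 3 was the lowest value in either group, and its log2 difference of 0.25 had a 95% interval from -0.37 to 0.88. It was 0.45 without MG replicate 3, 0.17 without both arrays numbered 3, and turned to -0.0272 without PBS replicate 3. Bmp6 was near the reference level, at 5.13, 5.15 and 4.71 in MG and 5.49, 5.22 and 5.04 in PBS, and differed by -0.25 with a standard error of 0.17. Bmp2 and Bmp5 had values of at most 4.85 and 4.34 in MG and 5.02 and 4.28 in PBS.

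The TGF-beta ligands had group means within 1 standard error of each other. Tgfb2 lay between 7.80 and 8.11 in MG and between 7.77 and 7.96 in PBS. Tgfb1 lay between 5.65 and 6.00 in MG and between 5.70 and 6.18 in PBS, and Tgfb3 between 5.49 and 5.66 in MG and between 5.50 and 5.70 in PBS. The groups overlapped in all 3 genes. Their log2 differences were 0.09 for Tgfb2, -0.14 for Tgfb1 and 0.02 for Tgfb3, with standard errors of 0.13, 0.16 and 0.12. That of Tgfb1 was -0.29 without both arrays numbered 3.

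The groups overlapped in every BMP and activin receptor gene among the 37. Bmpr1a, a type I receptor gene expressed widely in the neural lineage, was at 9.08, 9.17 and 9.03 in MG and 9.06, 9.12 and 9.07 in PBS. Its pooled standard deviation of 0.05 was at percentile 2.41 of all genes, and the 95% interval of its difference ran from -0.24 to 0.26. Bmpr2, the gene of the BMP type II receptor, lay between 11.50 and 11.78 in MG and between 11.51 and 11.76 in PBS. Bmpr1b, a second type I receptor gene, stood at 8.50, 8.84 and 8.97 in MG and 8.28, 8.59 and 8.58 in PBS. MG replicates 2 and 3 were above all PBS values and MG replicate 1 was within them, with a log2 difference of 0.28 (standard error 0.16, 95% interval -0.09 to 0.66). Acvr1, another type I receptor gene, differed by 0.08, and the type II receptor genes Acvr2a and Acvr2b, which also bind activins, by -0.13 and -0.03.

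Among the TGF-beta receptor genes, Tgfbr2 varied most between cultures and Tgfbr3 least. Tgfbr2, the type II receptor gene of the TGF-betas, stood at 5.67, 6.15 and 6.54 in MG and 6.44, 6.30 and 6.99 in PBS. It was highest on the array numbered 3 of each group, and MG replicate 3 lay above 2 of the 3 PBS values. Its log2 difference of -0.45 (standard error 0.25) amounts to 1.37-fold, with a 95% interval from -1.04 to 0.13. Leaving out MG replicate 1 gave -0.23, and leaving out PBS replicate 3 gave -0.25. Tgfbr1, its type I partner, had means of 7.60 ± 0.19 in MG and 7.59 ± 0.30 in PBS (SD, n = 3 each). Tgfbr3, the gene of betaglycan, a co-receptor that presents TGF-beta2 in particular, stood at 4.64, 4.86 and 4.71 in MG and 4.93, 5.07 and 4.91 in PBS. The groups of Tgfbr3 did not overlap, but 5 of the 6 values were below the reference level.

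The Smads that carry the signal overlapped between MG and PBS. Of the BMP-branch Smads, Smad1 lay between 7.63 and 7.92 in MG and between 7.65 and 7.67 in PBS, and Smad5 between 8.70 and 9.06 in MG and between 8.84 and 9.10 in PBS. Smad9, the third of them, was near the reference level, at 5.28 ± 0.015 in MG and 5.16 ± 0.19 in PBS (SD, n = 3 each). Smad4, the common partner of both branches, lay between 10.28 and 10.54 in MG and between 10.41 and 10.74 in PBS. Smad2 lay between 8.98 and 9.35 in MG and between 9.00 and 9.29 in PBS. The groups of these 5 genes overlapped, and their log2 differences ran between -0.10 and 0.12. Smad3, which binds DNA on the TGF-beta and activin branch, stood at 8.60, 8.38 and 8.05 in MG and 8.91, 8.69 and 7.97 in PBS. The array numbered 3 was the lowest of each group, and the log2 difference of -0.18 had a standard error of 0.25. Without both arrays numbered 3 it was -0.31 with a standard error of 0.15, and leaving out PBS replicate 3 alone gave -0.46. It was -0.31 with MG replicate 1 left out, -0.10 with PBS replicate 2 and -0.04 with MG replicate 3, and turned to 0.01 with PBS replicate 1 left out.

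Negative feedback genes of the pathway showed no separation of the groups. The inhibitory Smad genes Smad6 and Smad7 are induced by the pathway and blunt it at the receptor. Smad7 stood at 5.74, 5.76 and 6.13 in MG and 5.66, 5.76 and 5.74 in PBS, with a log2 difference of 0.16 that was 0.043 without both arrays numbered 3. MG replicate 3 and, by a narrow margin, MG replicate 2 were above the PBS range, and MG replicate 1 was within it. Smad6 was below the reference level, between 4.38 and 4.60 in MG and between 4.23 and 4.61 in PBS. The ubiquitin ligase genes Smurf1 and Smurf2, whose products mark Smads and receptors for degradation, differed by 0.10 and -0.11 with standard errors of 0.12 and 0.15. Bambi, a pseudoreceptor gene that BMP signalling induces, stood at 7.04, 7.31 and 7.48 in MG and 7.09, 7.06 and 7.12 in PBS. MG replicates 2 and 3 were above the PBS range and replicate 1 below it, with a log2 difference of 0.18 (standard error 0.14), and 0.097 without both arrays numbered 3.

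The start of Smad6 is shown because its window alone, among those searched, held the palindromic Smad-binding motif. Promoter windows, 250 bases before to 50 after a gene's start, were taken from RefSeq (GRCm38.p6), where 25 of the 37 genes matched with 35 windows. Bmp2, Bmp7, Tgfb3, Tgfbr3, Smad2, Smad4, Smad7, Nog, Fst, Bambi, Cd109 and Skil had no window here and were not searched. The motifs below were searched on both strands: GTCTAGAC, which is its own reverse complement, GGCGCC, likewise palindromic and GC-rich, and CAGAC, read as GTCTG on the other strand. They do not contain one another. GTCTAGAC was in 1 of the 35 windows (2.86%), against 0.21% of all 32851 promoter windows. GGCGCC was in 8 windows (22.9%), of Bmpr1a, Bmpr2, Grem1, Smad5, Smad9, Smurf2 and Tgfbr1, against 11.9% of all windows. CAGAC was in 19 (54.3%), against 49.6% of all. In the Smad6 window (chr9:64022010-64022309, minus strand) the capitals mark GTCTAGAC, which begins 4 bases before the start. A match says only that the letters are there.
Smad6: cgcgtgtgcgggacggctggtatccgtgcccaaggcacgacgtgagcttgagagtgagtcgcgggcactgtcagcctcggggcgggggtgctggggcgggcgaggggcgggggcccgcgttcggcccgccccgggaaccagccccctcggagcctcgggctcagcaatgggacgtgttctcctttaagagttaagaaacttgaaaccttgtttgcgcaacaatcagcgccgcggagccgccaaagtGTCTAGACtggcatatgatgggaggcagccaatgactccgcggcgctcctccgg

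The extracellular antagonist genes Nog, Fst and Grem1 did not separate the groups, and Grem1 was below the reference level in MG replicate 1. Nog, the gene of Noggin, stood at 6.04, 5.66 and 5.48 in MG and 5.77, 5.72 and 5.58 in PBS, a log2 difference of 0.04 with a 95% interval from -0.33 to 0.41. Its replicate 3 was the lowest value in each group. Fst, the gene of follistatin, which traps activins, stood at 5.84, 6.09 and 5.62 in MG and 5.69, 6.03 and 5.58 in PBS, a log2 difference of 0.08. Grem1, another BMP antagonist gene, lay between 4.86 and 5.40 in MG and between 5.11 and 5.26 in PBS. The nuclear corepressor gene Skil, a feedback target of TGF-beta, lay between 7.16 and 7.46 in MG and between 7.14 and 7.42 in PBS. Tgif1, a homeodomain corepressor gene, was at 6.44, 6.64 and 7.49 in MG and 6.94, 6.74 and 7.21 in PBS, with both arrays numbered 3 the highest of their groups. Its log2 difference of -0.11 had a standard error of 0.27. It was -0.30 without both arrays numbered 3 and -0.42 without MG replicate 3, and turned to 0.10 without MG replicate 1.

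Cd109 had the largest difference of the 37 genes, and it is the one chosen for it. It encodes a GPI-anchored protein that binds TGF-beta1 and is known to dampen TGF-beta signalling in skin cells. It stood at 7.86, 8.09 and 8.04 in MG, against 8.86, 8.75 and 8.23 in PBS. All MG values lay under the lowest PBS value, that of PBS replicate 3, which was nearest to the MG range. The means were 7.99 ± 0.12 in MG and 8.61 ± 0.33 in PBS (SD, n = 3 each), a log2 difference of -0.62 (standard error 0.18), or 1.54-fold, which describes the choice and is no test of it. Leaving out 1 array at a time gave differences between -0.81 and -0.50, and leaving out both arrays numbered 3 gave -0.83.

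The latency genes Ltbp1 and Ltbp3 had means on opposite sides of PBS. Their products hold newly made TGF-beta in the extracellular matrix until it is released. Ltbp1 stood at 6.18, 6.25 and 6.33 in MG and 6.84, 6.81 and 6.41 in PBS. All 3 MG values were under the PBS values, with PBS replicate 3 close to them, a log2 difference of -0.43 (standard error 0.15, 95% interval -0.77 to -0.09), or 1.35-fold. Without both arrays numbered 3 it was -0.61. Ltbp3 stood at 7.15, 7.09 and 7.10 in MG and 7.03, 6.87 and 6.85 in PBS, with every MG value above the PBS values by a narrow margin. Its log2 difference was 0.19 (standard error 0.11, 95% interval -0.07 to 0.46). Groups did not overlap in 4 of the 37 genes, 1 higher in MG (Ltbp3) and 3 lower (Cd109, Ltbp1 and Tgfbr3). Over all genes, 7.34% did not overlap, 4.03% with higher and 3.31% with lower values in MG.

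**Figure D2:**
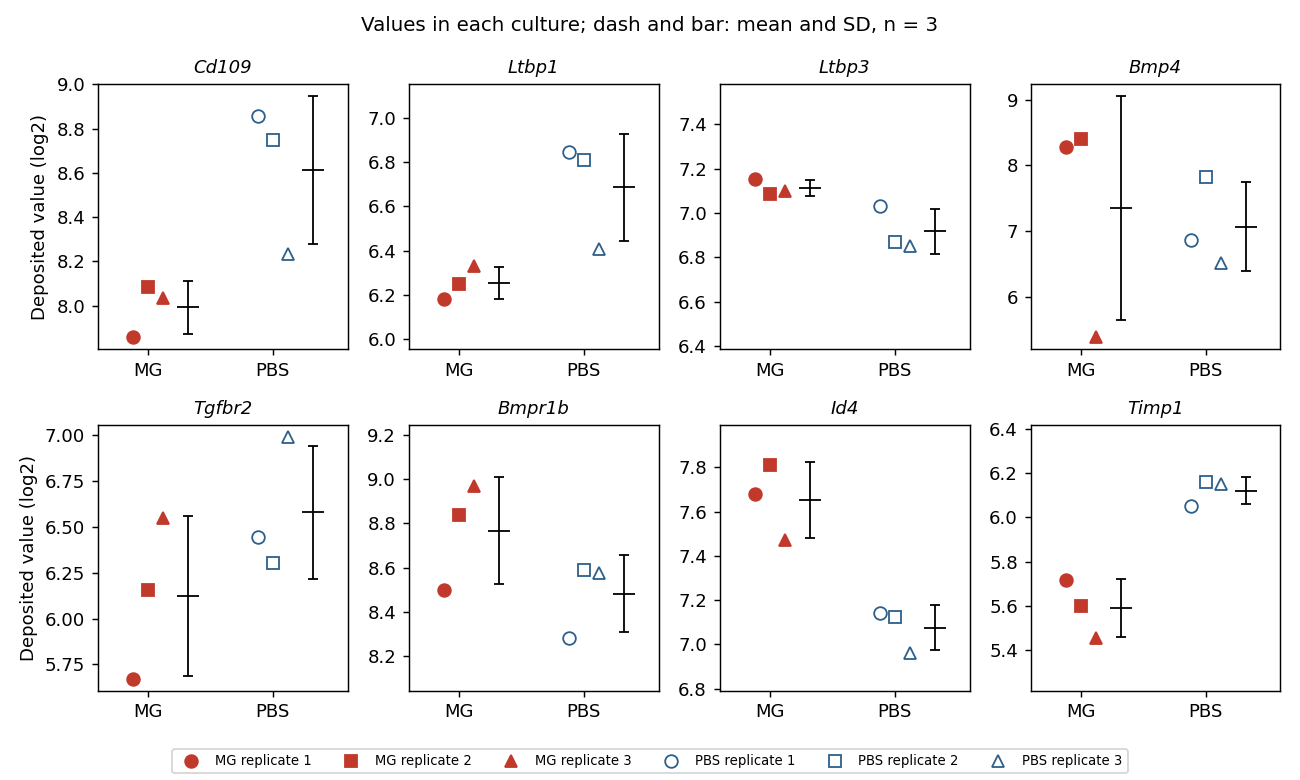
Deposited log2 value (vertical axis, its range set per gene) of 8 genes in each culture, MG at left and PBS at right, with the mean and SD of each group (n = 3). Cd109, Ltbp1 and Timp1 lie lower in all 3 MG cultures, Ltbp3 and Id4 higher, while MG values of Bmp4 enclose those of PBS.

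The promoter windows of both latency genes are shown because their groups separated in opposite directions, and that of Bmp4 because it varied most. Ltbp1 has 2 starts in RefSeq (chr17:75005279-75005578, plus strand, and chr17:75178531-75178830, plus strand). Ltbp3 has 1 (chr19:5740650-5740949, plus strand), as does Bmp4 (chr14:46390620-46390919, minus strand), all in GRCm38.p6. Capitals mark CAGAC or its reverse complement GTCTG, a motif that 49.6% of all windows hold. It occurred at 1 place in the first Ltbp1 window, at 2 in the second and at 2 in the Ltbp3 window, and none of the 3 motifs was in the Bmp4 window.
Ltbp1 first start: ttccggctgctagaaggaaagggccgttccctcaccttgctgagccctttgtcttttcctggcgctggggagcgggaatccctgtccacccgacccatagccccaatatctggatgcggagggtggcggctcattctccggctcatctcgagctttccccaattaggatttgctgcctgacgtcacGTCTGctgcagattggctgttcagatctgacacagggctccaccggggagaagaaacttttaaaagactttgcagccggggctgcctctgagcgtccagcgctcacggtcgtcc
Ltbp1 second start: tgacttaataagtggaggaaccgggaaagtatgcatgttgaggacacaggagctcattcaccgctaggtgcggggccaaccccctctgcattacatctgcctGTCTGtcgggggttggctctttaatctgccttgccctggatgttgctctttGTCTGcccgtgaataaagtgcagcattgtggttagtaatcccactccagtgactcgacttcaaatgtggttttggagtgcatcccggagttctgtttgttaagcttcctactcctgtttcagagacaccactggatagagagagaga
Ltbp3: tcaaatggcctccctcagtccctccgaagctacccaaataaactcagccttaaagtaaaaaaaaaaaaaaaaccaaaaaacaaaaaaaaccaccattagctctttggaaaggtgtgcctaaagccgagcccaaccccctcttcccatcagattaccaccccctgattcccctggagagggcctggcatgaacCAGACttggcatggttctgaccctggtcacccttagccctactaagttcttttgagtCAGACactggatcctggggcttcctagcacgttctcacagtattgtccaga
Bmp4: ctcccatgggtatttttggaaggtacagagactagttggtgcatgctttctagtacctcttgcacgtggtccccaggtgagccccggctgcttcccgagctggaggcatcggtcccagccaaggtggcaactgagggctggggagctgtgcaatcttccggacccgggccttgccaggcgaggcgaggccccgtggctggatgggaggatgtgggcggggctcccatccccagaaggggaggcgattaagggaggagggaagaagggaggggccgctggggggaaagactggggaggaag

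**Figure D3:**
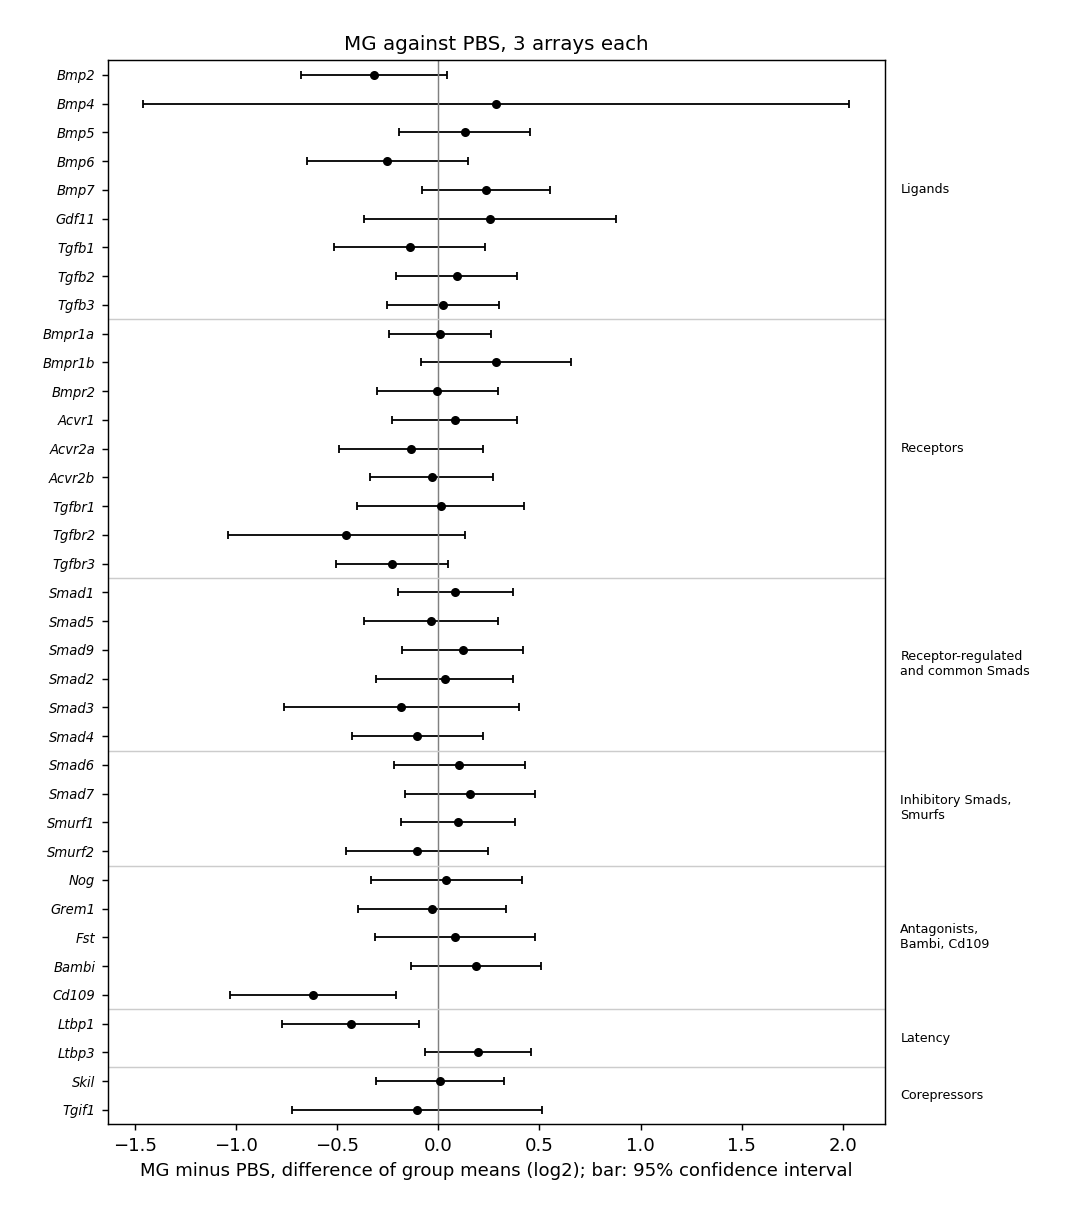
Difference of group means, MG minus PBS (log2, horizontal axis), for the 37 genes by role, with 95% confidence intervals from limma that are not adjusted for the number of genes. The intervals describe the spread and test nothing, since the list was made with this contrast in view. Cd109, chosen by these values, has the lowest difference, -0.62, and Bmp4 the widest interval, from -1.46 to 2.03.

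The arrays numbered 3 differed from the others of their group in the same direction for most of the 37 genes. Replicate 3 was above the mean of replicates 1 and 2 in both groups for 15 genes, below it in both for 16, and on opposite sides for 6. These are 40.5%, 43.2% and 16.2% of the 37, where all genes had 28.9% higher, 34.0% lower and 37.1% opposite. Of the 32 with both group means above the reference level, 15 were higher (46.9%), 12 lower (37.5%) and 5 opposite (15.6%), against 35.4%, 34.4% and 30.2% of the 13704 such genes. None of the 9 ligands was higher on both arrays numbered 3, and 6 were lower on both: Bmp4, Bmp5, Bmp6, Bmp7, Gdf11 and Tgfb2. Of the 9 receptors, 6 were higher on both, and of the 6 receptor-regulated and common Smads, 5 were, with Smad3 the exception. In Smad9 the MG shift was close to 0, as were the PBS shifts of Smad1 (0.013) and Acvr2b (0.016), both counted as higher. Among the lower ligands, the MG shift of Bmp7 was only -0.065, and Bmp5 was below the reference level on all 6 arrays. Among pathway genes outside the 37, 9 receptors and co-receptors had 2 higher on both, 3 lower on both and 4 opposite. The same counts were 8, 5 and 8 for 21 intracellular regulators, and 1, 13 and 8 for 22 ligands.

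The size of the shift exceeded 0.5 on both arrays, in the same direction, in 3 of the 37 genes. Tgfbr2 was higher by 0.63 in MG and 0.61 in PBS. Bmp4 was at -2.95 in MG and -0.83 in PBS, and Gdf11 at -0.59 in MG and -0.85 in PBS. Of the genes above the reference level, 3.79% were higher and 2.62% lower by that much. For Cd109 and Ltbp1 the shift was -0.57 and -0.42 in PBS, but 0.06 and 0.11 in MG. The 11 replication and mitosis genes were higher on both of these arrays. Of the 6 endothelial genes, 4 were lower on both and 2 went in opposite directions. Kdr (-0.91 in MG and -0.75 in PBS) and Flt1 (-0.45 in MG and -1.30 in PBS) were among the 4. So was Pecam1, at only -0.008 in MG. Cdh5 (0.20 in MG and -0.10 in PBS) and Tek (0.29 in MG and -0.36 in PBS) were the 2. Their part in the shifts was not tested.

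**Figure D4:**
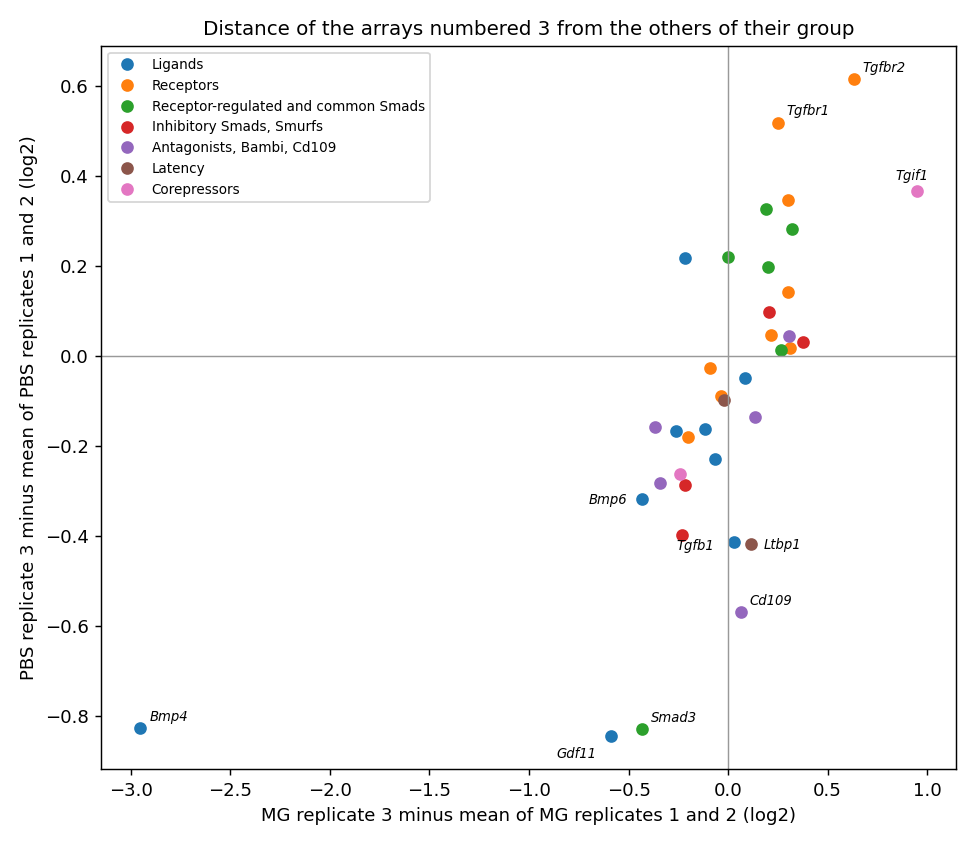
Distance of replicate 3 from the mean of replicates 1 and 2 (log2), in MG on the horizontal and in PBS on the vertical axis, 1 point per gene, coloured by role. Bmp4 (-2.95 and -0.83) and Gdf11 (-0.59 and -0.85) lie at lower left and Tgfbr2 (0.63 and 0.61) at upper right.

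Among other genes of the pathway, Id4 and Timp1 had the clearest separation between the groups. Of 115 further genes, 104 were tested, of which 53 had higher and 51 lower means in MG, with a median log2 difference of 0.01. In limma 0 of the 104 passed the adjusted threshold, and 7 had an unadjusted p under 0.05, 3 higher (2.88%) and 4 lower (3.85%) in MG, against 1.81% and 1.4% of all genes. For every gene named here the adjusted p was 0.9998.

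Genes that BMP signalling is known to induce had higher means in MG in 6 of 8, with a median log2 difference of 0.19. Over all genes the median was 0.01, and 53.7% had a higher mean in MG. Both group means were above the reference level in 6 of the 8, and 2 genes were below it on all 6 arrays. The 8 include Id1, Id2, Id3 and Id4, and the list was chosen with earlier results of these data known. No response to BMP is read from this count. Id4 encodes an inhibitor of helix-loop-helix factors. It stood at 7.68, 7.81 and 7.47 in MG and 7.14, 7.13 and 6.96 in PBS. Every MG value lay above the PBS values, with a log2 difference of 0.58 (standard error 0.13, unadjusted p 0.00243 in limma), or 1.49-fold, and of 0.61 without both arrays numbered 3. Its relatives Id1, Id2 and Id3, best known as BMP targets, differed by -0.03, 0.10 and 0.26, and their groups overlapped. The difference of Id2 was also 0.26 without both arrays numbered 3. Id3 stood at 8.21, 8.002 and 7.77 in MG and 7.44, 8.20 and 7.57 in PBS. Tmem100, a gene that BMP9 induces in endothelium, lay between 7.62 and 7.90 in MG and between 7.45 and 7.55 in PBS, a log2 difference of 0.28 (standard error 0.12, unadjusted p 0.0482 in limma).

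Genes that TGF-beta is known to induce went both ways, with 9 of 13 higher (69.2%, against 53.7% of all genes) and a median of 0.04. Timp1, a metalloproteinase inhibitor gene, stood at 5.72, 5.60 and 5.45 in MG and 6.05, 6.16 and 6.15 in PBS. All MG values were under the PBS values, a log2 difference of -0.53 (standard error 0.12, unadjusted p 0.00225 in limma), or 1.45-fold, and of -0.45 without both arrays numbered 3. Acta2, the smooth muscle actin gene, stood at 10.38, 10.82 and 10.23 in MG and 9.92, 10.40 and 8.83 in PBS, a log2 difference of 0.76 (standard error 0.37), which was 0.31 without PBS replicate 3 and 0.44 without both arrays numbered 3. Tagln, another contractile gene, differed by 0.47 with a standard error of 0.24, and by 0.25 without MG replicate 1. Of the 7 pericyte and fibroblast markers, 3 had higher and 4 lower means in MG.

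Further ligands had lower means in MG in 15 of 22, while 53.7% of all genes had a higher mean. Of the 22, 9 had both group means above the reference level, and nothing is read from the count. The named ones were Lefty1, an inhibitor of Nodal (log2 difference -0.34), Amh (-0.21) and Bmp3 (-0.20). Among 9 further receptors and co-receptors, the activin type I receptor gene Acvr1b differed by 0.44 (standard error 0.18), with values of 7.75, 7.33 and 7.41 in MG and 6.96, 7.36 and 6.84 in PBS. The BMP co-receptor gene Hjv differed by -0.32 (-0.17 without both arrays numbered 3) and Amhr2, the receptor gene for anti-Mullerian hormone, by -0.19. Both were near the reference level and reached below it, Hjv at 4.90 in MG replicate 3 and Amhr2 at 4.95 in PBS replicate 2.

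Of 16 further antagonists, 9 had lower means in MG, while 53.7% of all genes had a higher mean. Kcp, a chordin-like gene, lay between 5.55 and 5.92 in MG and between 6.07 and 6.25 in PBS (log2 difference -0.36, standard error 0.14), while Sost differed by -0.26 and Twsg1, a modulator of BMP and chordin, by 0.23. Latency and activation genes had higher means in MG in 11 of 15 (73.3%, against 53.7% of all genes). Of the 15, 4 were below the reference level on all 6 arrays, and nothing is read from the count. The named ones were Thbs1, a TGF-beta activator (0.43, standard error 0.22), Ltbp4 (0.28) and the proprotein convertase gene Pcsk6 (0.26). Thbs1 stood at 6.80 in MG replicate 3, against 5.99 and 6.04 in the other MG cultures and between 5.74 and 6.01 in PBS. Without that array the difference was 0.17 for Thbs1 and 0.074 for Ltbp4, and without both arrays numbered 3 it was 0.26 and 0.15. Of 21 further intracellular regulators, 13 had lower means, and the differences of the 3 named, Hipk2 (0.18), Tob1 (-0.16) and Foxh1 (-0.14), had standard errors of 0.13, 0.14 and 0.19. That of Hipk2 was 0.096 without both arrays numbered 3. Foxh1 was near the reference level and stood below it, at 4.63, in MG replicate 3.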

How the data were processed

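The authors deposited 1 log2 value per probe set and array, for 41345 probe sets. The values were made in Partek 6.6, per the submitters' processing notes. The sources used here do not name the background correction, normalisation or summarisation. The log2 scale is an inference, since the deposited values lie between 0.73 and 13.81. Array medians ran from 5.25 to 5.42.

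Probe sets were named through the platform annotation: 23521 named 1 gene, 1814 several and 16010 were unnamed here. MG was compared with PBS over 22180 genes by lmFit and eBayes of limma 3.58.1 (R 4.3.3), two-sided and without covariates, with Benjamini-Hochberg adjustment over all genes and a threshold of 0.05. The steps were tested on simulated data with independent noise for each gene and array. Those data held no shift shared by the arrays numbered 3, so the steps were not tested under such a shift. Arrays give no read depth, and 3 per group limit the precision, with a median standard error of 0.15 per log2 difference. Figures were drawn with matplotlib 3.10.9.

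The 37 genes, the gene lists and the alternatives were chosen with earlier results of these data known. Named beside the 37 were genes of each further list past the adjusted threshold and, where fewer than 3 passed, those with the largest absolute difference above the reference level in both groups, up to 3, the Id genes and any marker. Further genes with no probe set of their own were not analysed here. Alternatives were averaging of probe sets, leaving out dim genes, median centring, quantile normalisation, trend and robust moderation, the replicate number as a block, each array left out, and both arrays numbered 3 left out.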

Additional observations from a re-analysis of the deposited data

How the results depend on the processing

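No alternative gave a gene past the adjusted threshold in limma, among the 37, the 104 further genes or all genes. Genes with an unadjusted p under 0.05 numbered 711, and between 267 (dim genes left out, 13959 tested) and 1063 in the alternatives, with 415 without PBS replicate 1. The count of the 37 with a higher mean in MG, 21, ran between 16 and 23 with 1 array left out and was 25 with median centring. Their median log2 difference, 0.01, ran between -0.0056 and 0.0721 with 1 array left out, the highest without MG replicate 1. With the replicate number as a block, 0 of all genes, of the 37 and of the further genes passed, and 1063 had an unadjusted p under 0.05. Deviations of same-numbered cultures from their group means correlated at 0.22, 0.04 and 0.45, and not every culture correlated best with its own number, so the numbers were not taken to pair the cultures. Id1 turned sign to 0.0113 with median centring and to 0.0175 without both arrays numbered 3, and ran between -0.11 and 0.0616 with 1 array left out. Id2 ran between -0.0111 and 0.27. Foxh1 ran between -0.25 and 0.0714, and was 0.11 without both arrays numbered 3. The cause of these turns was not tested. Of the 37 differences, 18 turned sign in at least 1 alternative, with a median size of 0.037 and at most 0.29 (Bmp4), among them Gdf11, Smad3, Tgif1, Nog, Fst, Bmpr2 and Tgfbr1. With 1 array left out, 32 of the 37 turned sign or changed by over 1.5 times, all but Bmp2, Tgfbr3, Cd109, Ltbp1 and Ltbp3. So did 18 of 23 named further genes, all but Acvr1b, Pcsk6, Id4, Tmem100 and Timp1. The other 19 kept their sign in every alternative that held them, among them Cd109, Ltbp1 and Ltbp3. For these 3 it follows from their lack of overlap in the alternatives that leave arrays out. Nothing is read from it for Cd109, which was chosen by these values. With 3 arrays per group, the median standard error of 0.15 limits which differences can be seen.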
